A study of Mus musculus with 6 samples.

Results

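The immunity-related GTPases (IRGs) are a family of interferon-inducible GTP-binding proteins of the mouse. They were followed here through 10 genes, Iigp1, Gm12250, Tgtp1, Tgtp2, Ifi47, Irgm1, Irgm2, Igtp, Gm4951 and Gm12185, out of 41388 genes in the deposited table. The members were taken by name, by matching the Ensembl identifiers of the table to mouse symbols, and all 10 were found. The measurements were RNA-Seq libraries from 3 WT and 3 Irf1-/- cultures of T lymphocytes, all on a C57BL/6 background and all kept for 2 days under Th9 conditions with IL-2, IL-4, TGF-β and IFN-γ, so that the control cultures had received IFN-γ too. Per the study's methods the T cells were naive CD4+ cells from spleen and lymph nodes of mice aged 8 to 12 weeks, and the labels give a knockout of the transcription factor IRF1 without naming the deleted exons. The study describes the samples of each genotype as independent biological samples, and the labels do not say which animal each came from.

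IRG proteins assemble on the membranes of vacuoles in which intracellular parasites such as Toxoplasma gondii live, and their expression in many cell types is switched on by IFN-γ, with IRF1 among the factors involved. The GKS proteins are effectors that load onto the vacuole and disrupt it, and they comprise here Iigp1 (also called Irga6), Gm12250 (Irgb10), Tgtp1 (Irgb6), its close copy Tgtp2, and Ifi47 (Irgd). The GMS proteins Irgm1, Irgm2 and Igtp (Irgm3) are regulators that sit on the cell's own membranes and hold the effectors inactive there. Gm4951 (Ifgga2) and Gm12185 (Irgb2b1) are further genes of the family. The comparison asks how far the level of each of these transcripts in Th9 cells exposed to IFN-γ differs when IRF1 is absent.

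The promoters of the chromosome 11 members were placed beside the expression values because 2 short motifs are known to serve the IFN-γ response. The interferon-stimulated response element (ISRE), bound by IRF proteins, was searched as AANNGAAA and in a stricter form as a pair of GAAA blocks set 2 bases apart, and the gamma-activated sequence (GAS) as TTCNNNGAA. Both strands were read over 250 bases before to 50 bases after each RefSeq start on GRCm38.p6, and 8 of the 10 members were matched to such a window. The 100 bases before the start are shown, 5′ to 3′ on the gene's strand, for the 7 members with a stricter ISRE, and capitals mark the stricter ISRE and the GAS, together with the bases between them where only 2 bases separate the motifs.
Gm12250: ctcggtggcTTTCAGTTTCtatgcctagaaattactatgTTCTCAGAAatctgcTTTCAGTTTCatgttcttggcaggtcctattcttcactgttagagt
Tgtp1: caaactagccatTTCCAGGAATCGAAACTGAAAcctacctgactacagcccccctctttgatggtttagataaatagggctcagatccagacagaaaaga
Gm12185: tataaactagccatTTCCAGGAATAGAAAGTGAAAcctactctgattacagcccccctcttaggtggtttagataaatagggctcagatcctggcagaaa
Tgtp2: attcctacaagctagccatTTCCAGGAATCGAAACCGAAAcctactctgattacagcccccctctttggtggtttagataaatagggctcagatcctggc
Igtp: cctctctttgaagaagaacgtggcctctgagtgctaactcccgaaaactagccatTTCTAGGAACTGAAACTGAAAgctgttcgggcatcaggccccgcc
Irgm2: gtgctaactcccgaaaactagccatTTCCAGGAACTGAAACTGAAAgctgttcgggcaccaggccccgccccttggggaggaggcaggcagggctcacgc
Irgm1: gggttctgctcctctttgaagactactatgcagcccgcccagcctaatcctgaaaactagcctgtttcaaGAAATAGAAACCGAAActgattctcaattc

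These windows lie at chr11:58183743-58183842 (+ strand) for Gm12250, chr11:48992247-48992346 (- strand) for Tgtp1, chr11:48927183-48927282 (- strand) for Gm12185, chr11:49064213-49064312 (- strand) for Tgtp2, chr11:58199456-58199555 (+ strand) for Igtp, chr11:58214877-58214976 (+ strand) for Irgm2 and chr11:48871421-48871520 (- strand) for Irgm1. In Tgtp1, Gm12185, Tgtp2, Igtp and Irgm2 the GAS ended 2 bases before the stricter ISRE, and an AANNGAAA match overlapped the last bases of the GAS. This block began 88 bases before the start in Tgtp1 and 45 bases before it in Igtp. Gm12250 carried its stricter ISRE on the opposite strand at 2 places, with a GAS between them, and Irgm1 had a pair of overlapping stricter ISRE matches and no GAS. The window of Ifi47 held a single AANNGAAA match and neither of the other motifs. Of the 8 member windows, 8 held AANNGAAA, 7 held the stricter ISRE and 6 held TTCNNNGAA. The same motifs were present in 23.9%, 3.44% and 8.30% of all 32851 RefSeq promoter windows of this length.

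**Figure D1:**
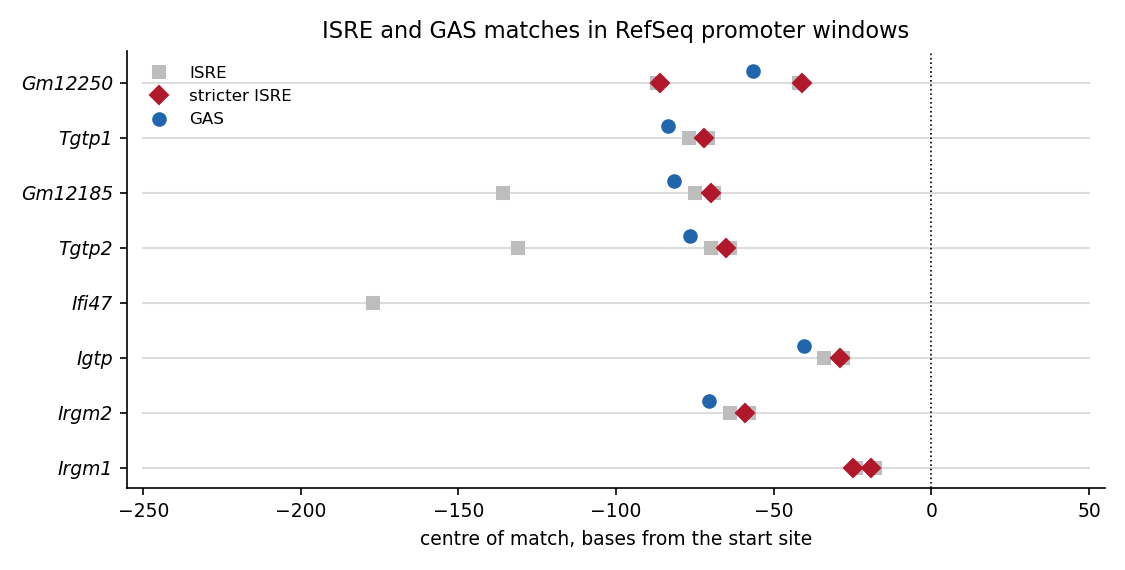
Centres of ISRE (AANNGAAA), stricter ISRE and GAS (TTCNNNGAA) matches in the promoter windows of 8 IRG genes, in bases from the RefSeq start site (dotted line), with genes ordered from the largest fall at the top to the smallest at the bottom. Stricter ISRE matches in 7 of 8 genes sit within 100 bases before the start, and Ifi47 has a single ISRE match farther away.

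The reads on genes numbered 6381576 to 13348230 in the WT libraries and 5639788 to 12423511 in the Irf1-/- libraries, with replicate 3 the deepest of both genotypes. Values are normalised read counts, that is reads scaled by the size factor of each library, and a difference is the log2 fold change of Irf1-/- minus WT on the log2 of the normalised count plus 1, tested with limma and Benjamini-Hochberg adjustment over 11379 genes. T helper markers (Cd3e, Cd3g, Cd4, Lck, Cd5, Cd28) summed to 13893 to 14335 in WT and 13279 to 13732 in Irf1-/- libraries, and Il9, the cytokine that names Th9 cells, was at 852 to 1272 and at 3201 to 3726. The 4 NK cell markers were at or under 3 reads in each library, the 2 CD8 T cell markers summed to 20.3 to 41.2 and the 4 B cell markers to 18.7 to 37.4. The 7 myeloid markers summed to 21.2 to 149 in WT libraries and to 209, 993 and 15.98 in Irf1-/- replicates 1, 2 and 3. The 4 Y-linked genes summed to 2301 and 2306 in WT replicates 1 and 2 and to at most 11.1 elsewhere, so that sex differed between the cultures. In bulk RNA, fewer cells of a type and less RNA per cell cannot be told apart.

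All 10 IRG genes passed the filter of a mean normalised count of at least 10, and limma called all 10 lower in the Irf1-/- cultures (adjusted p below 0.05). The WT and Irf1-/- values of these 10 genes did not overlap. Iigp1, Gm12250, Gm4951 and Gm12185 had Irf1-/- means under 10 and passed the filter only through their WT values, so that their part in these counts is not support. The 6 members with a mean of at least 10 in both genotypes were all called lower, and their median difference was -1.14 on the log2 scale. Of all genes tested, 12.4% were called lower, 23.7% were called in either direction and 20.9% were lower without overlap of the groups. The fall exceeded 1 on the log2 scale in 7 of the 10 members, against 1.34% of all genes called lower by that much. Iigp1, Gm12250, Gm4951 and Gm12185 are among these 7, and their part is again not support. Of the 6 members with a mean of at least 10 in both genotypes, Tgtp1, Tgtp2 and Ifi47 fell by more than 1. Igtp, Irgm2 and Irgm1 did not. The median log2 fold change of all 10 members was -2.26, beside -0.004 over all genes tested, and it has the same limit. The sizes of the falls spread widely, from -9.15 for Iigp1, which ranked first of the 11379 genes, to -0.48 for Irgm1, at rank 614.

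**Figure D2:**
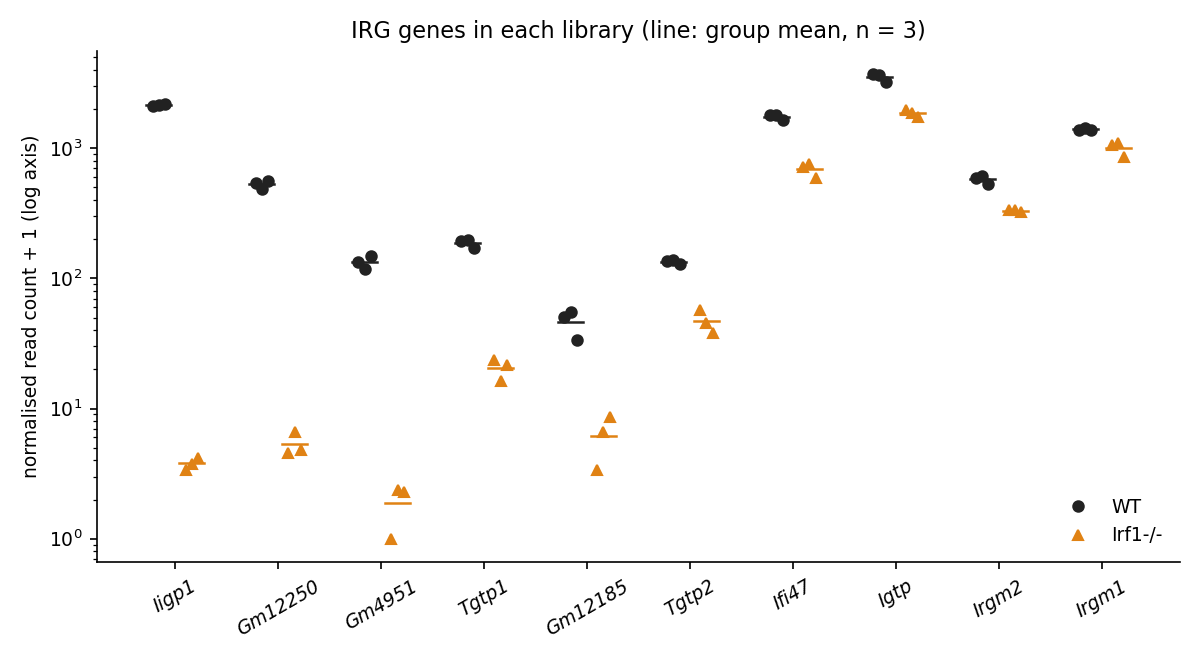
Normalised read count plus 1 on a log axis for the 10 IRG genes in each of the 6 libraries (circles WT, triangles Irf1-/-, lines group means of 3), ordered by log2 fold change. Iigp1 drops from at least 2103 to at most 3.20, and the groups stay separate down to Irgm1 on the right, at 1390 against 1006.

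Among the GKS effectors, Iigp1 showed the largest difference. WT cultures had 2103, 2145 and 2183 normalised counts, and Irf1-/- cultures had 2.39, 2.77 and 3.20. Every WT culture was high and every Irf1-/- culture was near the floor, with 9 reads over the 3 Irf1-/- libraries against 7020 over the WT libraries. The mean fell from 2143 ± 39.98 (SD, n = 3) to 2.79 ± 0.404 (SD, n = 3), which left 0.130% of the WT level. The log2 fold change was -9.15 (standard error, SE, 0.132, 95% CI -9.44 to -8.86, adjusted p = 2.21e-11). The ratio of the pooled reads was 747-fold, with an exact binomial 95% interval of 393 to 1635 that covers counting error only.

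Gm12250, which encodes the effector Irgb10, also came close to the floor. It had normalised counts of 537, 486 and 558 in WT and 3.58, 5.55 and 3.83 in Irf1-/- cultures, with 13 reads in the latter. The mean fell from 527 ± 37.2 to 4.32 ± 1.07 (SD, n = 3 each), or 0.820% of WT, with a log2 fold change of -6.65 (SE 0.185, adjusted p = 1.13e-08). Gm12250 is listed as a processed pseudogene of 1 exon in the annotation used for coordinates and as a protein-coding gene by RefSeq.

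Tgtp1 and Tgtp2, near-identical effector genes of one cluster, differed in how much remained. Tgtp1 was at 192, 196 and 169 in WT and at 22.7, 15.3 and 20.5 in Irf1-/- cultures, so that 10.5% of the WT mean was left. Its log2 fold change was -3.20 (SE 0.179, 95% CI -3.60 to -2.81, adjusted p = 1.75e-06). Tgtp2 was at 135, 137 and 127 in WT and at 56.1, 44.4 and 37.1 in Irf1-/- cultures, so that 34.5% was left, with a log2 fold change of -1.54 (SE 0.166, 95% CI -1.90 to -1.17, adjusted p = 1.49e-04). The count of Tgtp1 over that of Tgtp2 lay between 1.33 and 1.43 in the WT libraries and between 0.344 and 0.552 in the Irf1-/- libraries. The split between these 2 genes is uncertain, because 81.2% of the 50-base stretches of Tgtp1 and 86.6% of those of Tgtp2 also occur in another gene, mostly in each other, and how the authors' counting treated reads that match several genes is not given in the sources used here. Their sum does not depend on the split between them and went from 319 ± 19.7 to 65.3 ± 11.7 (SD, n = 3), which is 20.5% of WT and a log2 fold change of -2.28 (SE 0.135).

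Ifi47, the effector Irgd, was the most abundant effector per exon length and kept the largest share of its level among the effectors. Its normalised counts were 1786, 1784 and 1652 in WT and 719, 759 and 589 in Irf1-/- cultures. The mean fell from 1741 ± 77.0 to 689 ± 88.6 (SD, n = 3), to 39.6% of WT, with a log2 fold change of -1.34 (SE 0.0883, adjusted p = 5.46e-06). The 5 effectors had a median log2 fold change of -3.20, and in the order of the falls the 95% intervals of Tgtp2 and Ifi47 overlapped while those of Iigp1 and Gm12250 did not.

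The 3 Irgm regulators fell less. Igtp, the regulator Irgm3, was at 3711, 3675 and 3242 in WT and at 1966, 1851 and 1734 in Irf1-/- cultures. Its mean of 3543 ± 261 became 1851 ± 116 (SD, n = 3), or 52.2% of WT, with a log2 fold change of -0.94 (SE 0.0680, adjusted p = 1.11e-05). Irgm2 was at 590, 606 and 526 in WT and at 332, 331 and 325 in Irf1-/- cultures, which left 57.4% of the WT mean (log2 fold change -0.80, SE 0.0758, adjusted p = 6.25e-05). Irgm1 was at 1374, 1421 and 1376 in WT and at 1059, 1102 and 856 in Irf1-/- cultures. Its mean went from 1390 ± 26.7 to 1006 ± 132 (SD, n = 3), or 72.3% of WT, and the log2 fold change was -0.48 (SE 0.0867, 95% CI -0.67 to -0.28, adjusted p = 0.00336). The values of the 3 regulators did not overlap between the genotypes, and their intervals, the lowest bound being -1.09 for Igtp, lay above that of Ifi47, whose highest bound was -1.15. No test was made of the effectors as a group against the regulators.

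**Figure D3:**
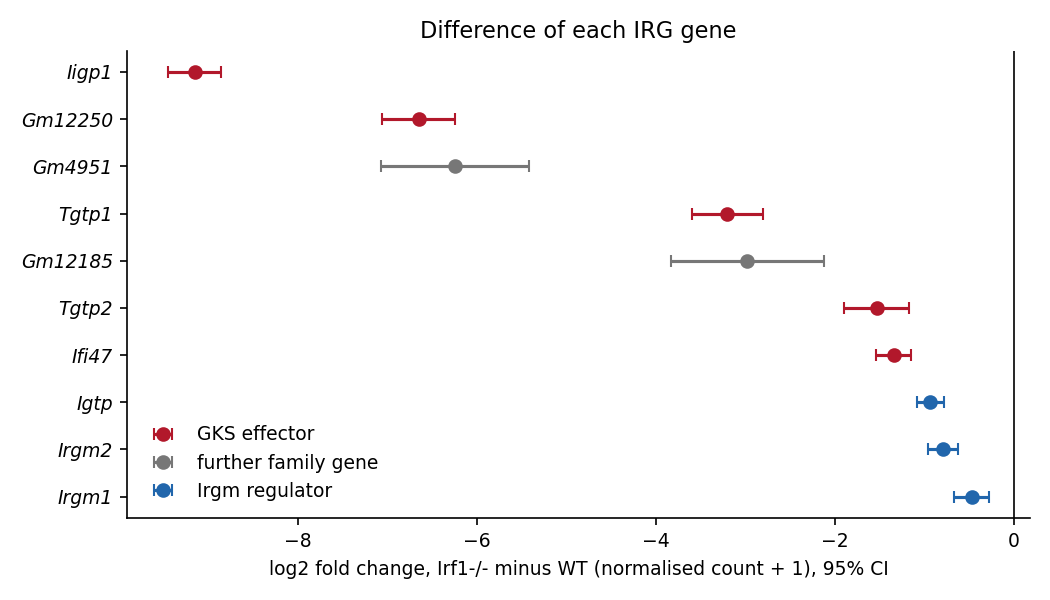
Log2 fold change (Irf1-/- minus WT, on normalised count plus 1) of the 10 IRG genes with 95% confidence intervals from limma, coloured by role. The 5 GKS effectors run from -9.15 to -1.34 and the 3 Irgm regulators from -0.94 to -0.48.

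The further family genes Gm4951 and Gm12185 were lowly expressed and fell strongly. Gm4951 was at 133, 117 and 149 in WT cultures and at 0, 1.39 and 1.28 in Irf1-/- cultures, which held 3 reads in all. The ratio of pooled reads was 142-fold, with an exact binomial 95% interval of 48.4 to 693 for counting error, and its fitted log2 fold change of -6.24 (adjusted p = 2.74e-06) depends on the pseudocount. Gm12185 was at 49.9, 54.1 and 32.6 in WT and at 2.39, 5.55 and 7.67 in Irf1-/- cultures. Its mean went from 45.5 ± 11.4 to 5.20 ± 2.66 (SD, n = 3), which left 11.4%, and the log2 fold change was -2.98 (SE 0.387, adjusted p = 4.64e-04). Of the 50-base stretches of Gm12185, 19.5% also occur in another gene and 11.4% in the family gene Gm5431, and its annotated exons overlap those of Tgtp1 over 223 bases.

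The order of the transcripts per kilobase of annotated exon differed between the genotypes. In WT cells Igtp stood highest at 1752 ± 129 normalised counts per kb, followed by Ifi47 at 704 ± 31.1, Gm12250 at 414 ± 29.2, Iigp1 at 368 ± 6.87, Irgm1 at 239 ± 4.59 and Irgm2 at 156 ± 11.5 (SD, n = 3). Tgtp1, Gm4951, Tgtp2 and Gm12185 followed at 57.9 ± 4.55, 50.3 ± 6.08, 45.3 ± 1.75 and 8.15 ± 2.04, and within this order Tgtp1 and Gm4951, and Gm4951 and Tgtp2, did not differ beyond their SDs. In Irf1-/- cells Igtp and Ifi47 still led, at 915 ± 57.4 and 279 ± 35.8, but Irgm1 came next at 173 ± 22.7 and Irgm2 at 89.3 ± 1.10. Gm12185, Iigp1 and Gm4951 were last, at 0.931 ± 0.476, 0.478 ± 0.0694 and 0.336 ± 0.292 per kb, and these 3 did not differ beyond their SDs. Per kb of the longest coding transcript, in place of all annotated exons, Iigp1 was at 687 ± 12.8 and Irgm1 at 615 ± 11.8 in WT cells, both above Gm12250, so that these places depend on the length used. The places of Tgtp1 and Tgtp2 are uncertain too. Of their 50-base stretches, 81.2% and 86.6% also occur in another gene, and how such reads were counted is not given. If these reads were left out, both values per kb would be too low, as would their shares of a per-kb sum.

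Summed over the 10 genes, the normalised counts were 10415 ± 348 in WT and 3953 ± 326 in Irf1-/- cultures (SD, n = 3), which left 38.0% of the summed count. Summed per kb of exon, 39.1% remained. Igtp, Irgm1 and Irgm2 together made up 54.7% to 57.7% of the per-kb sum in WT libraries and 78.2% to 80.6% in Irf1-/- libraries. The share of Igtp alone went from 46.1% ± 1.61 to 61.8% ± 1.71 (SD, n = 3). Iigp1 went from 9.72% ± 0.567 of the sum to 0.0326% ± 0.00725, and Gm12250 from 10.9% ± 1.11 to 0.229% ± 0.0530. The share of Ifi47 was 18.5% ± 0.132 in WT and 18.7% ± 1.26 in Irf1-/- cultures, a difference within the spread between replicates. The count of Iigp1 over that of Igtp lay between 0.567 and 0.673 in WT libraries and between 0.00121 and 0.00184 in Irf1-/- libraries.

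**Figure D4:**
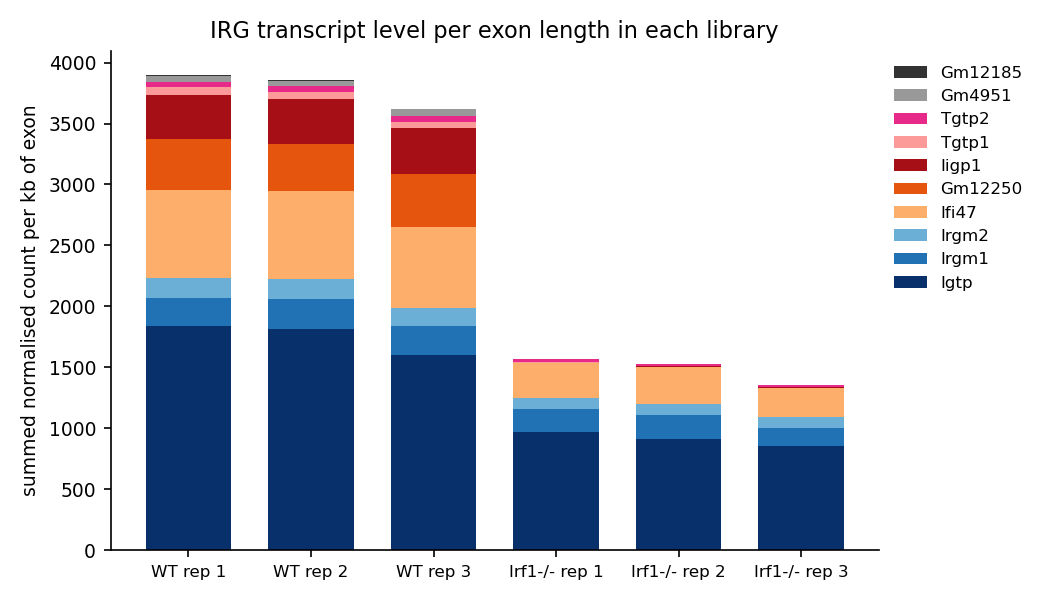
Summed normalised read count per kb of annotated exon of the 10 IRG genes in each library, with each gene as a block of the bar. Regulators (blue) make up 54.7% to 57.7% of the bar in WT and 78.2% to 80.6% in Irf1-/- libraries, where Iigp1 and Gm12250 are too small to see.

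The members lie in 3 clusters. Irgm1 (ENSMUSG00000046879, chr11:48861968-48871683, - strand), Gm12185 (ENSMUSG00000048852, chr11:48904656-48992226, - strand), Tgtp1 (ENSMUSG00000078922, chr11:48985327-48994172, - strand), Tgtp2 (ENSMUSG00000078921, chr11:49057194-49064206, - strand) and Ifi47 (ENSMUSG00000078920, chr11:49076587-49096974, + strand) form one on chromosome 11 of GRCm38. Gm12250 (ENSMUSG00000082292, chr11:58187739-58189012, + strand), Igtp (ENSMUSG00000078853, chr11:58199556-58207591, + strand) and Irgm2 (ENSMUSG00000069874, chr11:58199618-58222782, + strand) form the second. Iigp1 (ENSMUSG00000054072, chr18:60376027-60392634, + strand) and Gm4951 (ENSMUSG00000073555, chr18:60212080-60247820, + strand) lie on chromosome 18. The falls were unequal within both chromosome 11 clusters. In the second cluster Gm12250 kept 0.820% of its WT level, while Igtp, which starts 10.5 kb past its end, kept 52.2%. Igtp and Irgm2 share 162 exon bases in this annotation, so reads there cannot be assigned to either.

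The chromosome 11 clusters lie on both sides of the targeted gene Irf1, at distances from 4.41 Mb for Gm12250 to 4.90 Mb for Irgm1. Irf1 itself was at 2660 to 2968 in WT and at 1476 to 1780 in Irf1-/- cultures, a count over the whole gene that does not check the loss of a part of it. Whether the place on the chromosome of the targeted allele has a part in the values of these 8 genes was not tested. Iigp1 and Gm4951, with 2 of the 3 largest falls, lie on another chromosome. Of the 109 other tested genes whose midpoint was within 6 Mb of the Irf1 start, 15 were lower and 15 higher, which gives 13.8% lower beside the 12.4% of all genes, and their median log2 fold change was 0.02. Large differences in both directions stood among them: 5 were called lower by more than 1 on the log2 scale, or 4.59% beside 1.34% of all genes (Gm12216 at -2.18, Il4 at -2.15, Fat2 at -1.88, Lyrm7 at -1.64 and Trim7 at -1.27), and 4 were called higher by more than 1 (Gm17334 at 2.31, P4ha2 at 2.03, Pdlim4 at 1.45 and Atox1 at 1.10). These genes were named after their values were seen.

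**Figure D5:**
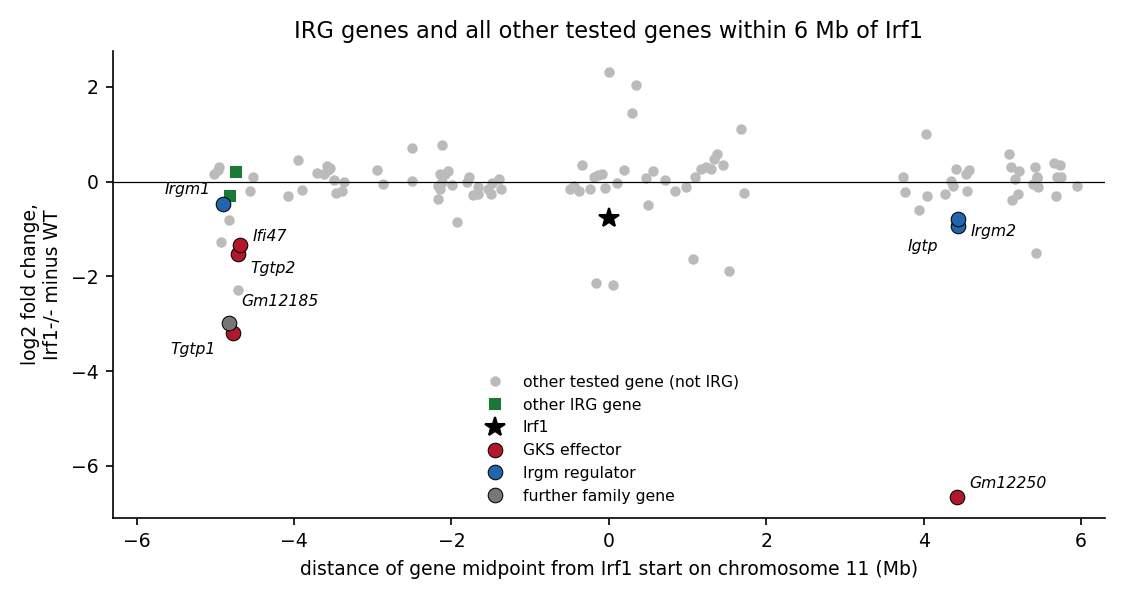
Log2 fold change (Irf1-/- minus WT) of every tested gene within 6 Mb of Irf1 on chromosome 11 against the distance of its midpoint from the Irf1 start in Mb, with IRG genes coloured by role. The 8 member genes form a group on each side, reaching -6.65 at Gm12250, while the 109 other tested genes have a median of 0.02 and, where called, lie between -2.18 and 2.31.

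The genes next to the members were described in the same way. Within 250 kb of a member there were 58 genes outside the IRG lists, of which 20 were tested, 4 called lower and 2 higher, with a median log2 fold change of -0.01. Over all genes, 12.4% were called lower and 11.4% higher. Of the 4 called lower, Gm5970 and Trim7 passed the filter only through their WT values and are not support. The lower ones were Gm5970, a processed pseudogene inside the chromosome 18 cluster (31.2, 34.9 and 35.7 in WT, 2 reads in all in Irf1-/-, adjusted p = 7.88e-05), Synpo, which encodes the actin-associated protein synaptopodin (log2 fold change -1.94, adjusted p = 7.98e-04), Trim7 (-1.27, adjusted p = 0.0462) and Larp1 (-0.27, adjusted p = 0.00791). Gm5970 lies within the span of the member Gm4951 but shares no exon bases with it. Of the 50-base stretches of Iigp1, 0.2% also occur in Gm5970. Rack1, a component of the ribosome, was higher by 0.23 (adjusted p = 0.00778) and Trim41 by 0.32 (adjusted p = 0.0257). The calls of Trim7 and Trim41 were lost in 11 and 9 alternative settings.

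Of 7 further IRG family genes in the table, 5 were tested and 2 were lower, beside 12.4% of all genes, both on chromosome 18, and both passed the filter only through their WT values. Gm4841 was at 27.5, 20.4 and 14.8 in WT cultures and had no read in the Irf1-/- cultures (adjusted p = 2.42e-04). The exact binomial interval of its pooled reads had a lower bound of 15.9-fold. Against a floor of 3 reads over the group, the ratio was 20.1-fold. F830016B08Rik went from 31.5 ± 2.55 (SD, n = 3) to 2 reads in 3 libraries, a ratio of pooled reads of 50.3-fold with an exact binomial interval of 13.6 to 421 (adjusted p = 3.14e-04). 9930111J21Rik1 and 9930111J21Rik2, which lie between Irgm1 and Ifi47, had log2 fold changes of -0.30 (adjusted p = 0.560) and 0.20 (adjusted p = 0.575), and 83.2% and 59.8% of their 50-base stretches also occur in another gene. Irgq had a log2 fold change of -0.08 (adjusted p = 0.657), and Gm5431 and Irgc1 were not tested.

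The guanylate-binding proteins, interferon-inducible GTPases that also act at parasite vacuoles, were lower too. Of 13 other interferon-inducible GTPase genes listed, 11 were in the table and 7 were tested, and these 7 were lower, beside 12.4% of all genes, from -5.14 for Gbp2 and -3.74 for Gbp2b to -2.18 for Gbp8, with a median of -2.78. Gbp3 passed the filter only through its WT values, so that its part in this count is not support. Gbp11, Mx1, Mx2 and Gvin1 did not reach the filter.

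Among the genes of IFN-γ signalling, which lie upstream of the IRG genes in the pathway, the differences ranged from -0.35 to 0.28 on the log2 scale. Of 9 listed and tested, 2 were lower, beside 12.4% of all genes. Among them Irf8, a transcription factor of the IRF family, had a log2 fold change of -0.35 (adjusted p = 0.0178) that lost its call in 4 alternative settings. The receptor genes Ifngr1 and Ifngr2 had log2 fold changes of 0.16 and -0.26 and were not called, although Ifngr2 was called lower in 4 alternative settings, among them without Irf1-/- replicate 3 (-0.34, adjusted p = 0.0284).

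None of the listed vacuole targeting genes, whose products help IRG proteins load on vacuoles or mark them, was called lower. Of 14 listed and tested, limma and edgeR called 0 lower with 1 at an unadjusted p below 0.05, and DESeq2 called 0 with 0 below it, while limma and edgeR called 5 higher and DESeq2 2, beside 11.4% of all genes higher in limma. The higher ones were Map1lc3a (0.66, adjusted p = 0.0495) and Map1lc3b (0.42, adjusted p = 0.00859), which encode LC3 proteins, Gabarapl1 (0.29, adjusted p = 0.0323), the cargo receptor Sqstm1 (0.25, adjusted p = 0.00859) and the protease Atg4b (0.24, adjusted p = 0.0281). Map1lc3a, Gabarapl1 and Atg4b lost their calls in 12, 8 and 8 alternative settings. The log2 fold change of Atg5 was -0.27 with an adjusted p of 0.0611, and Atg5 was called lower in 4 alternative settings, among them without Irf1-/- replicate 3 (-0.35, adjusted p = 0.0204). Traf6, at 0.17 and not called, was called higher in 4 alternative settings, among them without WT replicate 3 (0.22, adjusted p = 0.00947).

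Over the 6 libraries, the 5 non-member genes whose centred log2 profile lay closest to the median profile of the members were Erap1, Nuak2, Parp14, Tapbp and Mndal. Their Euclidean distances were 0.413, 0.455, 0.465, 0.497 and 0.503 on the log2 scale.

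Returning to the promoter windows, similar motif blocks went with closer remaining levels in some pairs of genes and with different ones in others. Igtp and Irgm2 have the same spacing of GAS and stricter ISRE and windows that were 68.15% identical. They kept 52.2% and 57.4% of the WT level. Tgtp1 and Irgm2 have the same spacing of GAS and stricter ISRE and kept 10.5% and 57.4% of the WT level, the former resting on the uncertain split from Tgtp2 (20.5% for their sum). The windows of Gm12185 and Tgtp2 were 96.6% identical, and these genes kept 11.4% and 34.5%, with 95% intervals of -3.83 to -2.12 and -1.90 to -1.17 on the log2 scale, although their counts are uncertain for the reasons given. The counted genes do not all begin at the windows shown. In the annotation used for coordinates Gm12185 begins next to the start of Tgtp1 and Irgm2 next to that of Igtp. The RefSeq windows of both lie far inside these spans, so that their reads need not come from transcripts that start at the windows. Gm12250, counted over chr11:58187739-58189012, lies wholly past its RefSeq window at chr11:58183593-58183892, and the same limit holds for its reads. Ifi47, with no stricter ISRE and no GAS in its window, kept 39.6%.

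Without Irf1-/- replicate 2, the library with the myeloid marker sum of 993, all 10 members were still called lower, and the log2 fold change was -9.15 for Iigp1, -6.81 for Gm12250, -0.94 for Igtp and -0.55 for Irgm1. In the 4 libraries that held Xist (WT replicate 3 and the 3 Irf1-/- libraries, a grouping chosen after seeing the data), the single WT library gives no spread of its own and is assumed to vary like the Irf1-/- libraries. There 9 of the 10 members were called lower, and Irgm1, at -0.46 beside -0.48 in all 6 libraries, was not (adjusted p = 0.0703). Gm4841 was at -3.98 beside -4.41 in all 6 libraries, with an adjusted p of 0.0671. A fit with 1 WT library cannot tell a part of sex in these values from the smaller number of samples.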

How the data were processed

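RNA of 6 Th9 cultures was measured by poly(A) RNA-Seq with single-end reads. The authors used STAR 2.4.0b for alignment to GRCm38, featureCounts for counting per Ensembl gene and DESeq2 1.12.3 for normalisation. The deposited signal is thus a count divided by a library's size factor. Whole reads were recovered for 100% of non-zero values, within 0.001 of a read. The strand setting and the handling of reads on several genes are not given in the sources used here.

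limma 3.58.1 in R 4.3.3 was run on genes averaging 10 or more (eBayes with a mean-variance trend, log2 of the normalised count plus 1, Benjamini-Hochberg adjustment, threshold 0.05). limma was chosen because the values are normalised. Coordinates and exon lengths came from GENCODE vM21, promoters and alternative names from RefSeq (GRCm38.p6). Shared stretches were found by matching each 50-base stretch of a member's transcripts to those of all genes.

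The members, lists and motifs were chosen with earlier results of these data known, from general knowledge of the family. Named were all members, listed genes past the threshold or else those with the lowest p, called neighbours within 250 kb, and the 5 genes with the closest profile. Ifngr1, Ifngr2, Atg5, Traf6, 9930111J21Rik1, 9930111J21Rik2, Irgq and the untested genes were named outside this rule after their values were seen. The alternatives tried were edgeR 4.0.16 and DESeq2 1.42.0 (both on recovered reads), TMM factors, quantile normalization, no trend, a pseudocount of 0.1 or 10, a minimum mean of 50 or no minimum, a replicate block, a Y-linked covariate, libraries left out, and windows of 100 kb and 1 Mb. The fits were tested on simulated data. Depth ranges are given with the results, and intervals and floors from reads cover counting error only. Values of 1 listed gene are not reported here. The authors' ChIP-Seq data were not used here.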

Additional observations from a re-analysis of the deposited data

How the results depend on the processing

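The log2 fold change of each member stayed below 0 in all 20 alternative settings in which it had a value. The members' calls held in the settings with a test, except that of Irgm1 in the 4 libraries with Xist, and the pair of deepest libraries allowed no test. Gm12185 could not be tested with a mean of at least 50, where 9 members were called. The fold changes depended on the pseudocount for the lowest genes: Gm4951 ranged from -7.81 to -3.71 and Iigp1 from -9.55 to -7.40.

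The median log2 fold change of the members was -1.62 with a pseudocount of 10, -1.54 with a mean of at least 50 (fewer genes tested), -2.07 with a Y-linked covariate, -2.01 in the 4 libraries with Xist, -2.37 in the 4 libraries of smaller depth and -1.85 in replicate 3 of both genotypes. It ranged from -2.38 to -2.14 with 1 library left out.

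The genes called lower numbered 1406 of all tested, 807 with no trend, 392 in the 4 libraries with Xist (fewer samples, with 1 WT library assumed to vary like the others), and 826 to 1472 with 1 library left out (829 without WT replicate 1, 826 without WT replicate 2, 895 without Irf1-/- replicate 2). The further IRG family genes called lower went from 2 to 0 with a mean of at least 50 and to 1 in the libraries with Xist, and the neighbours from 4 to 2 in both settings and in the 100 kb window. The neighbours called lower also numbered 3 with a pseudocount of 0.1 and without WT replicate 1, WT replicate 2 or Irf1-/- replicate 1. They numbered 5 with no minimum mean and with quantile normalization. With the replicate block, without Irf1-/- replicate 3, in the 4 smaller libraries and in the 1 Mb window they numbered 6. Of all genes, 2085 were called lower in the 4 smaller libraries. Vacuole targeting genes called lower went from 0 to 1 with a Y-linked covariate and in the 4 smaller libraries, and to 0 to 1 with 1 library left out (1 without Irf1-/- replicate 3). IFN-γ signalling genes went from 2 to 1 with no trend, to 0 in the libraries with Xist, to 3 with a Y-linked covariate and in the 4 smaller libraries, and to 1 to 3 with 1 library left out (1 without WT replicate 1 or 2, 3 without Irf1-/- replicate 3). The cause was not tested.

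With the replicate number as a block, 10 members were called lower with a median of -2.26, 2116 of all genes were called lower, as were 1 vacuole targeting gene (Atg5) and 3 IFN-γ signalling genes (Ifngr2 added). The deviations of same-numbered libraries correlated at 0.0922, 0.269 and 0.321, and each library correlated best with its own number, but no label says that the numbers pair the cultures.

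Depth limits the values of Iigp1, Gm12250 and Gm4951 in Irf1-/- cells, with 9, 13 and 3 reads in all.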
